A study of Mus musculus with 6 samples.

Results

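The 10 genes described here, Id4, Zbtb16, Sall4, Etv5, Lin28a, Nanos2, Nanos3, Pou5f1, Bcl6b and Foxo1, encode regulators of spermatogonial stem cells, and their transcripts were compared between neonatal and adult mouse testis. They were found through the RefSeq accession of each mRNA probe, which gave 12 probes for the 10 genes, among 19053 named genes with an mRNA probe. Sall4 had 3 probes, and each of the other genes had 1. RNA came from whole testes of male mice of strain C57/BL6, either neonatal (6 days old) or adult (8 weeks old), with 3 arrays per age. Each replicate stands for a separate group of mice, so that the spread between arrays is a spread between groups. The question was which of these transcripts differ in level between a testis before meiosis and one in full spermatogenesis.

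Spermatogonial stem cells are the few germ cells on the basement membrane of the seminiferous tubule that both renew themselves and give rise to all later germ cells. Their renewal depends on glial cell line-derived neurotrophic factor (GDNF), which Sertoli cells secrete and which acts through the receptor RET and its co-receptor GFRA1. Transcription factors and RNA-binding proteins inside the germ cell hold it in the undifferentiated state, and retinoic acid moves its progeny on to the KIT-positive, differentiating state. In the first week after birth the tubules hold Sertoli cells and spermatogonia, while in the adult most germ cells are spermatocytes and spermatids.

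Signals are given on the log2 scale relative to the 75th percentile of the same array, so that 0 is the level of a bright probe. A value at the common floor of -7.22 is not a measurement. A gene was called where the fold change between ages was at least 5 and the adjusted p from limma was at most 0.05. The scanner's software flags a spot as an outlier when its pixels are uneven or when it departs from the spots like it, and such spots were left out of the first fit. Of the 72 spots of the 12 probes, 16 were outlier-flagged, 11 on neonatal and 5 on adult arrays. Neonatal replicate 3 alone carried 7 of them. Over all mRNA probes the flagged share was 40.6% on that array and 31.9% on adult replicate 3, which were scanned together. On the other 4 arrays, also scanned together, it lay between 7.61% and 14.2%.

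With outlier-flagged spots left out, 7 of the 10 genes could be tested. Sall4, Lin28a, Nanos2 and Bcl6b, 4 of the 7, were called lower in adult testis, against 13.9% of all genes tested. The Nanos2 call uses adult values at the floor. The Bcl6b call uses dim adult values too, with adult replicate 3 at the floor. Id4 alone was called higher in the adult, against 13.1% of all genes. Nanos3 and Pou5f1 were not called. Zbtb16, Etv5 and Foxo1 had fewer than 2 replicates with both spots unflagged and went untested. With the flagged spots kept, all 10 genes were tested, and 7 were called lower in the adult (15.7% of all genes) and 1 higher (13.3% of all genes). The added 3 were Zbtb16, Etv5 and Foxo1. In whole testis, fewer cells of a type and less RNA per cell cannot be told apart. Across all spots, 10 of the 12 probes were lower on every adult array than on any neonatal array, and 1 was higher without overlap. Among the 19310 mRNA probes that 1 array or more had well above background, these shares were 45.6% and 26.9%. The median difference over the tested probes of the 10 genes was -3.01 with flagged spots left out, or -2.96 with Nanos2 at its bound. For all mRNA probes tested these medians were -0.40 and -0.35. The genes were chosen as regulators of an early germ cell, so that their shared direction is no result about the list.

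**Figure D1:**
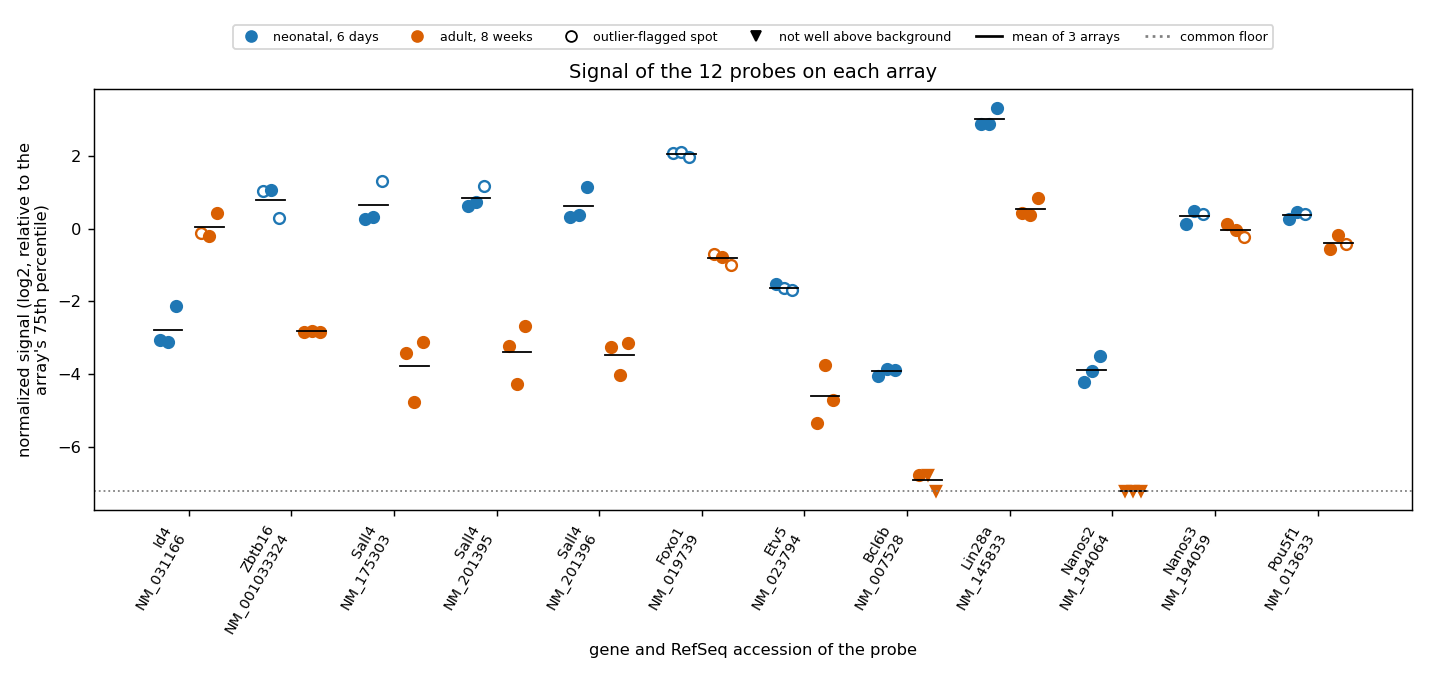
Normalized log2 signal (vertical axis, relative to the 75th percentile of the array) of the 12 probes (horizontal axis) on 3 neonatal arrays in blue and 3 adult arrays in orange. Open symbols are outlier-flagged spots, triangles are spots not well above background, bars are means of 3 arrays, and the dotted line is the common floor at -7.22. Id4 is the probe whose adult values all lie above its neonatal values, and the Nanos3 values of the ages overlap.

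Id4 encodes an inhibitor of DNA binding, a helix-loop-helix protein that has no basic region and keeps its partners off DNA, and its expression marks the stem cell fraction of spermatogonia. On the neonatal arrays Id4 (NM_031166) had a normalized log2 signal of -3.08, -3.13 and -2.11. On the adult arrays it stood at -0.11 (outlier-flagged), -0.18 and 0.44. Every adult value lay above every neonatal value. The difference between adult and neonatal testis was 2.75 (SE 0.18) on the log2 scale over the 2 replicates with unflagged spots, a 6.74-fold higher level in the adult (adjusted p = 0.00152). With the flagged spot kept it was 2.82 (SE 0.14), and the single pairs gave 2.97, 2.95 and 2.56. With that spot left out and no replicate block it was 2.90 (SE 0.41). Id4 was above the neonatal level in all 3 pairs and in both groups of arrays scanned together. Without replicate 2 or 3, of both ages or of the adult alone, too few unflagged spots were left to test Id4. The call was also lost under 1 alternative to limma, described with the other alternatives (adjusted p = 0.0802).

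The next genes encode transcription factors of the undifferentiated spermatogonium. Zbtb16 encodes PLZF, a zinc finger repressor needed for long-term renewal. Its probe (NM_001033324) read 1.06 (outlier-flagged), 1.06 and 0.31 (outlier-flagged) in neonatal testis. In adult testis it read -2.84, -2.81 and -2.83, all unflagged. The adult arrays were almost identical and far below the lowest neonatal one. Since only replicate 2 was free of flags at both ages, the difference was tested with the flagged spots kept and was -3.64 (SE 0.20), a 12.4-fold lower level in the adult (adjusted p = 0.000187). The pair with no flagged spot gave -3.88.

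Sall4 encodes a spalt-like zinc finger protein that is shared by pluripotent cells and undifferentiated spermatogonia. The probe for NM_201396, with no flagged spot, gave 0.34, 0.40 and 1.17 in neonatal and -3.26, -4.03 and -3.15 in adult testis. The ages were well apart, and within each age 1 array stood off, replicate 3 as the highest in the neonatal and replicate 2 as the lowest in the adult. The difference was -4.12 (SE 0.21, adjusted p = 0.000282), a 17.3-fold lower level in the adult. The other probes followed the same course. NM_201395 read 0.62, 0.74 and 1.18 (outlier-flagged) in neonatal and -3.24, -4.27 and -2.67 in adult testis, with a difference of -4.43 (SE 0.36, adjusted p = 0.00242). For NM_175303 the neonatal values were 0.29, 0.33 and 1.33 (outlier-flagged) and the adult ones -3.42, -4.78 and -3.11, with a difference of -4.40 (SE 0.42, adjusted p = 0.00359). All 3 Sall4 probes were thus lower in the adult in all 3 pairs, with estimates between -4.43 and -4.12. Without adult replicate 2, the lowest adult array, NM_201395 was at -3.64 and NM_175303 at -3.57, both still called. Without the filter on dim probes the adjusted p of NM_201395 was 0.0613 and that of NM_175303 was 0.0767, so that only NM_201396 was called, as it was under the alternative to limma.

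Foxo1 encodes a forkhead factor that is held in check by AKT signalling and is required for stem cell maintenance. Its probe (NM_019739) had 5 of its 6 spots outlier-flagged, adult replicate 2 being the exception. The neonatal spots read 2.09, 2.14 and 1.99. The adult spots read -0.68, -0.77 and -0.98. The replicates of an age lay close together in spite of the flags, and the ages did not overlap. With all spots kept the difference was -2.89 (SE 0.12, adjusted p = 8.84e-05), a 7.39-fold lower level in the adult, and no pair was free of flags.

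Etv5 and Bcl6b are induced by GDNF in cultured stem cells. Etv5 encodes an ETS-domain factor that acts in both germ and Sertoli cells. Its probe (NM_023794) read -1.52, -1.63 (outlier-flagged) and -1.70 (outlier-flagged) in neonatal testis. The adult spots read -5.36, -3.76 and -4.71. The neonatal values were tight and the adult ones spread widely (SD 0.80, n = 3), yet all lay below the neonatal values. With flagged spots kept the difference was -2.99 (SE 0.36, adjusted p = 0.00175), and the pairs gave -3.84 (replicate 1, unflagged), -2.13 and -3.01, of which the second is below 5-fold. With the normexp background correction and an offset of 50 added to every signal Etv5 was at -2.01 and not called. It was also not called with the offset alone (-2.09), and was called with normexp alone (-2.79).

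Bcl6b encodes a BTB-domain zinc finger repressor. Its probe (NM_007528) gave -4.04, -3.85 and -3.88 in neonatal testis, unflagged and well above background. In the adult it was well above background on 1 of 3 arrays, at -6.79, and not well above background on the others, at -6.77 and at the floor of -7.22. The adult values lay near the limit of detection and below all neonatal ones. The fitted difference was -3.01 (SE 0.16, adjusted p = 0.000313), and without the floor it was -3.37 (SE 0.40, adjusted p = 0.00354). Both fits used the dim adult values, which are not well above background. With the dim adult arrays set to the lowest signal well above background, where that was higher, the difference was -2.84, or 7.14-fold. The adjusted p values do not test that figure. Bcl6b was not called with normexp and the offset of 50 (-0.93), with the offset alone (-0.92), or with normexp alone (-2.25).

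Lin28a, Nanos2 and Nanos3 encode RNA-binding proteins. LIN28A blocks the maturation of let-7 microRNAs. The Lin28a probe (NM_145833), free of flags, had a normalized log2 signal of 2.90, 2.89 and 3.34 in neonatal and 0.44, 0.38 and 0.85 in adult testis. Lin28a was lower in the adult by nearly the same amount in each pair, with differences of -2.46, -2.51 and -2.50. The fitted difference was -2.49 (SE 0.10, adjusted p = 0.000185), a 5.61-fold lower level and therefore close to the 5-fold threshold. Without the replicate block the SE was 0.20. Its signal in the adult remained well above background on all 3 arrays.

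NANOS2 recruits the CCR4-NOT deadenylase to its target mRNAs and preserves the stem cell state. The Nanos2 probe (NM_194064) read -4.21, -3.92 and -3.50 in neonatal testis, well above background on every array. In adult testis none of the 3 spots was well above background, at scanner signals of 5.06, 3.86 and 1.60. The lowest signals of any spot well above background on those arrays were 14.2, 15.2 and 6.09. Nanos2 was therefore at least 7.78-fold lower in the adult. This bound sets the mean of the neonatal arrays, -3.88, against the adult mean with each array at its lowest signal well above background, -6.84. The call came from the limma fit with every adult value at the floor (-3.34, adjusted p = 0.000309). Those adult values are not measurements, so this p does not test the bound. With normexp and the offset of 50 the difference was -1.08 and not called, and with the offset alone it was -1.12 and not called. With normexp alone Nanos2 was called lower.

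Nanos3 is a relative that protects primordial germ cells from death and is found in undifferentiated spermatogonia after birth. The Nanos3 probe (NM_194059) read 0.12, 0.49 and 0.42 (outlier-flagged) in neonatal and 0.13, -0.03 and -0.22 (outlier-flagged) in adult testis. The values overlapped, since adult replicate 1 lay at the level of neonatal replicate 1. The difference was -0.26 (SE 0.20, adjusted p = 0.323), with a 95% interval from -0.90 to 0.38. Taken from the median of all mRNA probes it was 0.14. A fall of 5-fold lies outside that interval.

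Pou5f1 encodes OCT4, the POU-domain factor of pluripotent cells, which germ cells lose as they differentiate. The probe for Pou5f1 (NM_013633) read 0.28, 0.46 and 0.42 (outlier-flagged) in neonatal and -0.56, -0.18 and -0.43 (outlier-flagged) in adult testis. The ages did not overlap but lay close. The difference of -0.74 (SE 0.15, adjusted p = 0.0226), 1.66-fold, passed the limit on the adjusted p and missed the limit on the fold. Measured from the median of all mRNA probes it came to -0.34. Nanos3 and Pou5f1 were the members with the smallest differences, and both were well above background on all 6 arrays.

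**Figure D2:**
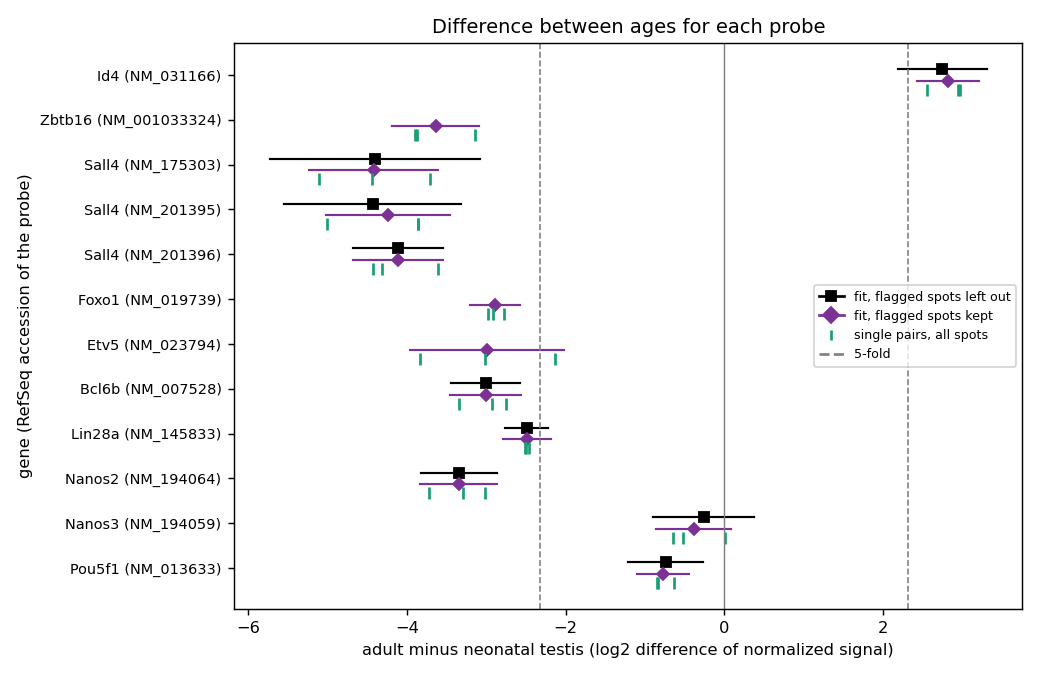
Difference between adult and neonatal testis on the log2 scale (horizontal axis) for each probe (vertical axis). Black squares and purple diamonds are limma estimates without and with the outlier-flagged spots, lines are 95% intervals, green ticks are the 3 single pairs, and dashed lines mark 5-fold. Zbtb16, Foxo1 and Etv5 have no estimate without flagged spots. The Nanos2 estimate uses adult values at the floor, the Bcl6b estimate has adult replicate 3 at the floor, and only the Id4 estimates lie to the right of 0.

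The GDNF axis was covered by 10 genes: the ligand, its receptor chains and genes that respond to it. Of the 7 tested without flagged spots, 5 were called lower in the adult, against 13.9% of all genes, and none higher, against 13.1%. The calls of Gdnf and T use adult values not well above background. The median difference over probes was -2.92, or -2.73 with probes at their bounds. With flagged spots kept, 5 of 8 were called lower, against 15.7% of all genes, and none higher, against 13.3%. The added gene, Tspan8, was at 0.68 (SE 0.22, adjusted p = 0.0468) and not called. Gdnf itself read -0.74 (outlier-flagged), -2.50 and -1.52 in neonatal testis and was not well above background on any adult array. On the 2 replicates without a flagged spot, Gdnf was at least 19.6-fold lower in the adult. With the flagged spot, the highest of the 3, this became 28.8-fold. The limma fit of Gdnf (-4.57, adjusted p = 0.000367) used the dim adult values as they stood, so this p does not test the bound. Of its responsive genes, Egr2, an early growth response factor, fell (-4.37, SE 0.14, adjusted p = 0.000395), and Ccnd2, which encodes cyclin D2, fell (-4.08, SE 0.14, adjusted p = 0.000451). Pou3f1, a POU-domain gene, fell (-2.75, SE 0.10), and T, which encodes brachyury, was at least 6.57-fold lower. The receptor chains gave little signal. Gfra1 was not well above background on any of the 6 arrays and so has no comparison, as does Egr3. A Ret probe (NM_001080780) was well above background in neonatal testis alone and at least 2.31-fold lower in the adult, and the other (NM_009050) was well above background on 1 array. Lhx1, a LIM homeobox gene, had a difference of 1.70 (SE 0.78, adjusted p = 0.114) and was not called. Its pairs gave 3.01, 2.59 and -0.49, with adult replicate 3 at the floor. Without adult replicate 3 Lhx1 was called higher, at 2.70 (SE 0.17, adjusted p = 0.000416), as it was without replicate 3 of both ages, at 2.80 (SE 0.16).

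Among 15 further genes of undifferentiated spermatogonia with a probe, 12 were tested, 6 were called lower in the adult, against 13.9% of all genes, and none higher, with a median difference of -2.84. Neurog3, a helix-loop-helix factor of transit-amplifying spermatogonia, fell (-4.03, SE 0.23), and it was well above background on 1 of 3 adult arrays. With the dim adult arrays set to the lowest signal well above background, where that was higher, Neurog3 was at -3.85, or 14.4-fold lower. Foxc2, a forkhead gene, fell (-3.96, SE 0.15). With flagged spots kept, 9 of 14 were called lower, against 15.7% of all genes, Cd9, Tcea3 and Uchl1 being the added genes. Without replicate 3 of both ages Uchl1 was at -2.28 and not called. At the other end, Bmi1, a Polycomb gene, differed by 0.42 (SE 0.19, adjusted p = 0.136) and Taf4b, a subunit of the general transcription machinery, by -0.14 (SE 0.11, adjusted p = 0.305). Pax7 was not well above background in the adult, and Erbb3 was not on any array.

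Family relatives of the 10 genes split in their behaviour. Of 14 relatives tested, 7 were called lower in the adult, against 13.9% of all genes, and none higher. Pou3f1 is 1 of the 7 and was counted in the GDNF axis too. The median difference over probes was -1.68, or -1.44 with probes at their bounds, against -0.40 and -0.35 for all mRNA probes. The Id family ran in opposite directions: Id1 fell (-3.57, SE 0.14, adjusted p = 0.000569) and so did Id3 (-2.88, SE 0.15, adjusted p = 0.000997), and Id2, testable with flagged spots kept, fell (-2.70, SE 0.11), while Id4 was higher in the adult. In the spalt-like family Sall2, with its flagged spot kept, was at least 15.5-fold lower in the adult (16.6-fold without it), Sall1 fell (-3.53, SE 0.33) with flagged spots kept, and Sall3, at 1.22 (SE 0.12), was not called.

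Among ETS relatives of Etv5, Etv4 fell (-2.42, SE 0.10, adjusted p = 0.000206), while Etv1 was near background and not called. Etv4 lay close to 5-fold and was not called without neonatal replicate 3 (-2.01), adult replicate 1 (-2.18) or adult replicate 2 (-2.27). These fits with a single array left out had no replicate block either. Nanos1 fell (-2.86, SE 0.14, adjusted p = 0.000899), and Zbtb7a, a BTB zinc finger gene like Zbtb16, fell (-2.77, SE 0.15). Lin28b, at -1.44 (SE 0.14), was not called, nor were the forkhead genes Foxo4, at -1.96 (SE 0.14), and Foxo3, which was not well above background in the adult and at least 2.45-fold lower there. Bcl6 had a difference of -0.44 (SE 0.18, adjusted p = 0.0956). The 4 probes of Pou2f1, which encodes OCT1, had differences between -0.57 and -0.42 and were not called.

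Among partners and targets of the 10 regulators, 1 of 6 tested was called lower, against 13.9% of all genes, and none higher. The median difference over probes was -1.74. Kit, counted with the differentiating spermatogonia too, and Akt1 were tested and not called. With quantile normalization 3 of 6 were called lower, against 20.1% of all genes. At 2-fold 4 were called lower and 2 higher, against 36.3% and 23.8%. Tcf12, whose helix-loop-helix product is a partner of the ID proteins, fell (-2.75, SE 0.16, adjusted p = 0.000386). Dnd1, which encodes a partner of NANOS2, had a difference of -2.04 (SE 0.16), or 4.10-fold, and was not called. Without adult replicate 3, in a fit with no replicate block, Dnd1 was at -2.36 and called lower. Cnot1, the scaffold of the CCR4-NOT complex, lay at 2.01 (SE 0.21) and 1.92 (SE 0.23) by its probes, below 5-fold. Hdac1, a deacetylase gene, lay at 1.05 (SE 0.14) and was not called. Ddit4, a target of PLZF, differed by -2.21 (SE 0.11) with flagged spots kept and was not called. Tcf3 was not well above background at either age.

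Of 7 genes of differentiating spermatogonia 5 were tested and 3 called lower in the adult, against 13.9% of all genes, and none higher, at a median difference of -2.40. The call of Rarg, a retinoic acid receptor gene at -2.40 and -2.43 by its probes, was lost without adult replicate 1 (-2.32 and -2.30) or adult replicate 2 (-2.25 and -2.31), where it was the 1 gene of the list still tested. Those fits had no replicate block. Without replicate 1 or 2 of both ages or of the neonatal, 0 genes of the list were left to test. Sohlh1, a helix-loop-helix gene of early differentiation, fell (-3.26, SE 0.20), and Stra8, which retinoic acid induces, fell (-2.61, SE 0.14). Kit, at -1.76 (SE 0.20) and -1.73 (SE 0.16) by its probes, and Sohlh2, at -1.66 (SE 0.15), were not called. With flagged spots kept, Ccnd1 fell (-4.63, SE 0.15) as did Dmrt1 (-3.33, SE 0.25). The summed level of the list, in units of each array's 75th percentile, was 82.3, 80.9 and 94.4 in neonatal and 16.7, 18.5 and 18.9 in adult testis, with Stra8 the brightest gene in the neonatal and Kit in the adult.

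**Figure D3:**
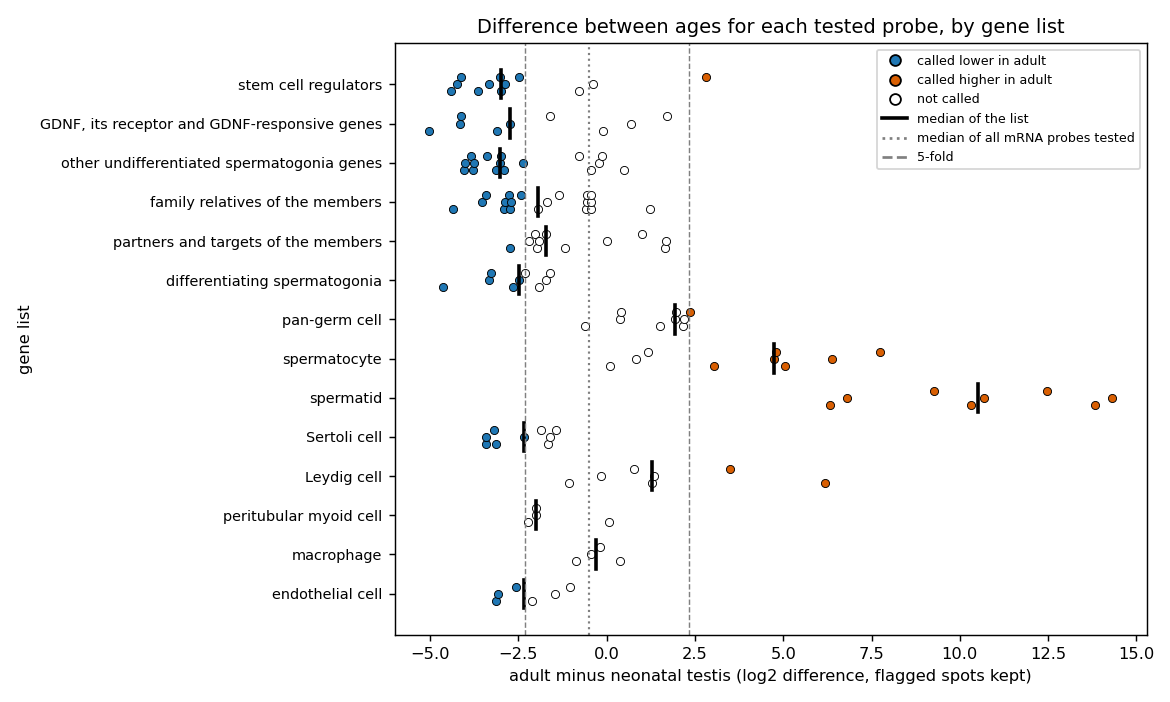
Difference between adult and neonatal testis (log2, horizontal axis) of each tested probe in 14 gene lists (vertical axis), with outlier-flagged spots kept. Filled points were called lower (blue) or higher (orange) in the adult, open points were not called, black bars are list medians, the dotted line is the median of all mRNA probes tested at -0.50, and dashed lines mark 5-fold. The spermatid list lies farthest to the right.

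Markers of later germ cells and of Sertoli cells served as a check of the ages on the labels. All 8 spermatid genes were called higher in the adult with flagged spots kept, and 7 of 7 tested without them, against 13.3% and 13.1% of all genes. Prm2, a protamine gene, rose by 14.32 (SE 0.18) and Tnp2, a transition protein gene, by 14.18 (SE 0.16). The summed spermatid level was 0.915, 0.949 and 1.65 in neonatal and 1086, 1258 and 1504 in adult testis, with Acr the brightest gene in the neonatal and Prm2 in the adult, and each gene was well above background on every neonatal array. Of 5 spermatocyte genes tested, 3 were called higher, against 13.1% of all genes, among them Ccna1, which encodes cyclin A1, by 7.62 (SE 0.19), and Piwil1, which encodes a PIWI protein, by 6.31 (SE 0.14). Their summed level was 32.8, 28.2 and 18.4 in neonatal and 178, 191 and 178 in adult testis, with Tex101 the brightest in the neonatal and Piwil1 in the adult.

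Pan-germ cell genes, chosen as markers of germ cells in general, summed to 79.2, 84.1 and 76.6 in neonatal and 241, 268 and 266 in adult testis. Mael was the brightest of the 5 at both ages. None of the 3 tested was called, against 13.9% of all genes called lower and 13.1% higher, with Mael at 2.17 (SE 0.14) and Tex14 at 0.37 (SE 0.15). With flagged spots kept, 1 of 5 was called higher, against 13.3% of all genes, Mael at 2.37 (SE 0.18), which without replicate 3 of both ages was at 2.17 and not called. Sertoli cell genes summed to between 83.7 and 114 in neonatal and 27.8, 22.4 and 20.5 in adult testis. Of the 4 tested, 2 were called lower, against 13.9% of all genes. Fshr, the receptor gene of follicle-stimulating hormone, fell (-3.05, SE 0.23) and so did Gata4 (-2.34, SE 0.16), Inha was the brightest of the list at both ages, and with flagged spots kept 5 of 9 were called lower, against 15.7% of all genes. Gata4 lay close to 5-fold and lost its call without replicate 2 of both ages (-2.19), neonatal replicate 3 (-2.08), adult replicate 1 (-2.30) or adult replicate 2 (-2.13). Of these fits, only that without replicate 2 of both ages kept the replicate block. No pan-germ, spermatocyte or Sertoli gene was without a signal well above background at either age. The part of these cell types in the differences of the 10 regulators was not tested.

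A pair of long non-coding RNAs that the study sets beside these genes was also on the arrays. AK080917, placed by the study in an intron of Zbtb16, read -1.63, -1.55 and -1.14 (outlier-flagged) in neonatal and -4.26, -4.50 and -3.79 in adult testis. AK080917 fell (-2.80, SE 0.16, adjusted p = 0.00127), the direction that Zbtb16 had with flagged spots kept. AK015551, placed near Id4, was not well above background on any neonatal array and read -1.23, -1.13 and -1.13 (outlier-flagged) in the adult. On the 2 replicates without a flagged spot, AK015551 was at least 64.3-fold higher in the adult, the direction of Id4. Its limma fit (6.04, adjusted p = 0.000239) took every neonatal value at the floor, so this p does not test the bound. A relation between the paired transcripts was not tested.

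Genes whose profile over the 6 arrays was most like that of a regulator were sought for the probes with no flag and a signal well above background on every array, Sall4 (NM_201396) and Lin28a, among 4381 such probes. After each probe's mean was subtracted, Lmnb1, which encodes lamin B1, and Tmem158 came nearest to Sall4, with root mean square differences of 0.16 and 0.20. Nearest to Lin28a were Proser2 and Scrn1, at 0.07 and 0.08. The likeness covers 6 arrays of 2 ages and says that the size of the difference between ages was similar.

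The RefSeq promoter table (GRCm38.p6) held 7 of the 10 genes, in 9 windows, and the 250 bases before the start were searched on both strands for TGACGTCA (the cyclic AMP response element), CACGTG (an E-box), ATGCAAAT (the octamer), GGGCGG (a GC box), CCAAT and TATAAA. No window held the cyclic AMP response element, the E-box or the octamer, which 1.55%, 6.02% and 1.60% of all 32817 promoters held. A GC box was found in 5 of the 9 windows and CCAAT in 7, where 32.7% and 33.8% of all promoters held them, and TATAAA in that of Nanos2 alone, where 12.4% did. Zbtb16, Sall4 and Bcl6b are named only. Id4, the gene that was higher in the adult, and Nanos2, the one not well above background there, differed in base composition. Guanine and cytosine made up 75.6% of the Id4 window and 50.8% of the Nanos2 window, against a median of 52.4% over all promoters. The Id4 window held 35 CpG dinucleotides and the Nanos2 window 0. Guanine and cytosine made up 62% and 71.2% of the Etv5 windows and 61.2% of that of Lin28a, both genes being lower in the adult. In the genes not called the share was 56.4% for Nanos3 and 62% and 45.6% for Pou5f1. A relation between base composition and the difference between ages was not tested. Both windows are printed 5′ to 3′ on the strand of the gene with the matches in capitals, Id4 from chr13:48260866-48261115 and Nanos2 from chr7:18987274-18987523, both on the plus strand. The Foxo1 window, chr3:52268087-52268336 on the plus strand, is added as that of a gene tested, and called lower, only with flagged spots kept. It has 20 CpG dinucleotides and 56% guanine and cytosine. A match is a run of letters and was not tested for binding.
Id4: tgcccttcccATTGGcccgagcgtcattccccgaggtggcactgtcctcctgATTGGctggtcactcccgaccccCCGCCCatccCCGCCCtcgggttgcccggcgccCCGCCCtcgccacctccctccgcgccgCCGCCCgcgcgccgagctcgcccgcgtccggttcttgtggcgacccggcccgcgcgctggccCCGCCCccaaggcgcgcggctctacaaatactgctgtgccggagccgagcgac
Nanos2: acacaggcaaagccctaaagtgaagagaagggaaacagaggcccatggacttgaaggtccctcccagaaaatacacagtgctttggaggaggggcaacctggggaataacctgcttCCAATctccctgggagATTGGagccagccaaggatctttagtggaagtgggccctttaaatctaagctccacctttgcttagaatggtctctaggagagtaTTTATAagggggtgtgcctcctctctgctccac
Foxo1: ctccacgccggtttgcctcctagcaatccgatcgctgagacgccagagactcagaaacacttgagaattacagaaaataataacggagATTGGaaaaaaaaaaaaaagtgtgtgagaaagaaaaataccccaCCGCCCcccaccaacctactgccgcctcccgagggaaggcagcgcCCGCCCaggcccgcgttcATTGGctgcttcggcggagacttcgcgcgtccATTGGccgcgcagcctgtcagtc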

How the data were processed

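Total RNA was primed with oligo dT, labelled with Cy3 and hybridised to 1-colour Agilent arrays. The authors deposited scanner intensity values per spot, background-subtracted within the array by Agilent Feature Extraction 10.5.1.1 (name and version from the submitters' processing notes). The authors also deposited log2 values, for which the methods name quantile normalization. For 100% of 26771 single-spot probes on each array these equal, within rounding, the log2 of the signal floored at 5 minus 1 constant per array.

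Each array's log2 signal was shifted by its 75th percentile, with a common floor of -7.22. Controls were dropped, as were the outlier-flagged spots. None was saturated. What can be measured is set by the dimmest spot well above background, at a signal of 6.09 to 24.0 depending on the array. Precision is limited by the number of arrays. RefSeq accessions gave gene names to 97.5% of the 22464 mRNA probes (GRCm38.p6 table). A probe was tested when 1 array or more had it well above background and 2 or more pairs were complete, which 24517 lncRNA and mRNA probes met. limma 3.58.1 (R 4.3.3) took replicate numbers as blocks, since the methods name a paired test. p-values were adjusted by the Benjamini-Hochberg method over all of them, and 29888 probes were fitted with flagged spots kept. Prior degrees of freedom were 2.07 and 2.22. A gene was called where at least 1 probe was called and none the other way. Folds given as "at least" include flagged spots unless stated and set the bright age's mean against the dim age's mean, each dim array taken at the higher of its own value and the lowest signal well above background. Deviations from the age mean correlated between ages at 0.401 and 0.339 for the same replicate number within the scan of replicates 1 and 2, and at 0.432 and 0.374 there for different numbers. Arrays of the same number were thus no more alike than others within that scan. They correlated at 0.681 for replicate 3, and at -0.59 to -0.48 between scans. Summed levels and the brightest gene of a list also depend on how well each probe binds.

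The named genes were each regulator, the extremes of each list, family relatives, the lncRNAs paired by the study, and the nearest profiles. The regulators and lists were chosen with earlier results of these data known. The lists were the GDNF axis, other undifferentiated spermatogonia, relatives, partners and targets, and markers of differentiating spermatogonia, germ cells, spermatocytes, spermatids, Sertoli, Leydig, peritubular myoid and endothelial cells and macrophages. Adgra3, Dmrtb1, Meiob, Rhox5 and Cd68 were matched to no probe. The fit was tested on simulated data. Alternatives covered the flagged spots, floor, normalization, background correction (normexp on the median spot signal, since the files hold no mean, and an offset of 50, together and apart), filter, block, prior variance, fold, the methods' t-test and each replicate left out. Where a single array was left out, the replicate block was dropped too, and the scans were no longer balanced between the ages. Summaries used Python 3.11.15, numpy 2.4.6, pandas 2.3.3, scipy 1.17.1 and matplotlib 3.10.9.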

Additional observations from a re-analysis of the deposited data

How the results depend on the processing

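With outlier-flagged spots left out, 4 of the regulators were called lower (13.9% of all genes) and 1 higher in adult testis. Keeping the flagged spots gave 7 lower (15.7%), as did the authors' log2 values, which include them (21.2%). Quantile normalization gave 4 (20.1%). The count was 2 (6.97%) with normexp on the median spot signal and an offset of 50, where Bcl6b (-0.93) and Nanos2 (-1.08) missed 5-fold. It was 2 (7.38%) with the offset alone and 3 (1431 of 12970 genes) with normexp alone. It was 2 (13.3%) with probes well above background on all 6 arrays, where both were not tested. Without the replicate block the counts were 4 and 1, and no call changed, as with arrays scanned together as a block. The methods' t-test gave 4 lower (11.7% of all genes) and 1 higher (12.4%) at its unadjusted threshold, and 4 lower (8.67%) and 0 higher (10.3%), members and probes alike, after Benjamini-Hochberg adjustment, where Id4 missed it (adjusted p = 0.0802). With replicates left out, 4 to 7 members were tested, 4 to 4 called lower (11.3% to 17.4% of all genes) and 0 to 1 higher (9.23% to 17.7%), and 4 to 6 probes lower and 0 to 1 higher. Id4 lost its call without replicate 2 or 3 of both ages or of the adult, since too few unflagged spots were left to test it. No difference of a regulator changed sign under any alternative, and among the single-probe comparisons 297 kept their call or lack of one and 19 lost a call. Without filter on dim probes and by the methods' t-test, NM_201395 and NM_175303 of Sall4 were not called, while NM_201396 was.

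Alternatives with flagged spots kept, and normexp and the offset apart, were chosen after seeing the data. Of 7 lower (15.7% of all genes) and 1 higher, the counts were 7 and 1 without each replicate, without the replicate block, with scan as a block and with quantile normalization (21.1%). They were 4 and 1 with normexp and the offset (8.08%), where Etv5 also missed 5-fold (-2.01), 4 and 1 with the offset alone (8.82%), and 6 and 1 with normexp alone (2114 of 16313 genes). The median difference of all mRNA probes was -0.40, against -0.74 with quantile normalization, -0.65 with a shift to the median, 0.03 with normexp and the offset, and -0.32 with normexp alone. Of all called genes 51.5% were lower in the adult, against 62.2% with the authors' log2 values, 40.2% with normexp and the offset, 40.4% with the offset alone and 39.1% to 65.3% with single arrays or replicates left out. Relative to that median Nanos3 lay between -0.26 and 0.47 and Pou5f1 between -0.73 and 0.01. Over the 36 settings 6.97% to 36.3% of all genes were called lower, the highest share at 2-fold. So were 2 to 6 of the GDNF axis (3 to 9 tested, 0 to 1 higher), 3 to 10 of the other undifferentiated spermatogonia genes (7 to 14 tested), 2 to 10 of the relatives (6 to 16), 0 to 6 of the differentiating (0 to 7), 0 to 6 of the Sertoli (2 to 9) and 0 to 5 of the endothelial genes (1 to 5). Of the spermatocyte genes 0 to 4 were called higher (0 to 7 tested), against 9.23% to 23.8% of all genes. Of the partners and targets 1 to 4 were called lower and 0 to 2 higher (2 to 9 tested). The cause of these changes was not tested.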

Other observations

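Leydig cells make androgens, and of their 7 genes 4 were tested without flagged spots. None was called, against 13.9% of all genes called lower and 13.1% higher. With flagged spots kept Hsd3b6 and Insl3 were called higher in the adult, against 13.3% of all genes, and none lower, against 15.7%. The summed level of the Leydig genes was 26.8, 28.6 and 25.5 in neonatal and 81.4, 67.6 and 63.0 in adult testis, with Hsd3b1 the brightest gene in the neonatal and Insl3 in the adult. Star, which encodes the carrier of cholesterol into mitochondria, had a difference of 1.34 (SE 0.32), and Hsd3b1, a steroid dehydrogenase gene, one of -1.04 (SE 0.15).

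Endothelial genes summed to 8.76, 10.00 and 15.9 in neonatal and 2.47, 2.09 and 3.58 in adult testis, Cdh5 being the brightest at both ages. Of 5 tested, Cdh5 and Pecam1 were called lower, against 13.9% of all genes. None was called by the t-test of the methods, adjusted or not, or without a filter on dim probes. Peritubular myoid genes summed to 21.7, 22.0 and 27.0 in neonatal and 4.80, 4.35 and 6.56 in adult testis. None of the 4 tested was called, against 13.9% of all genes called lower. With flagged spots left out, 1 was called lower with quantile normalization (20.1% of all genes) and with a shift to the median (17.8%). So was 1 with normexp and an offset (6.97%), with the offset alone (7.38%) and with normexp alone (1431 of 12970 genes). At 2-fold 3 were called lower, against 36.3% of all genes. With the authors' log2 values 1 was called lower, against 21.2% of all genes. Myh11 was the brightest at both ages, and Cnn1 gave no signal well above background at either age. Macrophage genes summed to 5.29, 5.16 and 4.13 in neonatal and 4.64, 4.71 and 4.39 in adult testis, Csf1r being the brightest in the neonatal and Mrc1 in the adult. None of the 2 tested was called, against 13.9% of all genes called lower and 13.1% higher.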
